A study of Mus musculus with 20 samples.

Results

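The genes described here are the 48 mouse genes of the matrix metalloproteinase (Mmp), ADAMTS protease (Adamts), ADAMTS-like (Adamtsl) and tissue inhibitor of metalloproteinases (Timp) families, out of 55486 genes counted. They were chosen by symbol alone, as a family name followed by a digit in both count tables, leaving out Mmp8, Mmp9, Timp1 and symbols with -ps. The tables class 1 of them, Mmp1a, as a polymorphic pseudogene and the others as protein coding. C57BL/6 mice, 10 weeks old at the start, received intraperitoneal oxaliplatin, a platinum chemotherapy, at 10 mg/kg in 5% dextrose over 8 weeks, and control mice received the dextrose alone. RNA was sequenced from the marrow of tibia and femur, taken 6 days after the last dose, and from kidney, whose collection the methods do not describe. The 4 groups, control marrow, oxaliplatin marrow, control kidney and oxaliplatin kidney, held 5 libraries each. The labels call every library a biological replicate, so each is spoken of as a mouse, and no label says which kidney and marrow came from the same animal. The methods name male and female mice and the labels give no sex, while Y-linked genes were expressed in all 10 marrow and all 10 kidney libraries. The question put to the data was how these genes differed after oxaliplatin in each organ.

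Matrix metalloproteinases and ADAMTS proteases are zinc enzymes that cut collagens, proteoglycans and other proteins of the extracellular matrix. Most are made as inactive precursors, and TIMPs block the active enzymes. ADAMTS-like proteins share the ancillary domains of ADAMTS proteases but lack the protease domain. In marrow such enzymes take part in bone turnover and in the release of cells and growth factors from their niche, and in kidney they take part in matrix turnover during injury and scarring.

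Marrow libraries held 30660153 to 41140527 counted reads and kidney libraries 24393007 to 30925430. Values are CPM, the reads of a gene relative to the sequencing depth of its library, scaled by the trimmed mean of M-values. A count of 3 reads stood at 0.0668 to 0.0975 CPM in marrow and 0.0900 to 0.130 CPM in kidney. Of counts from 1 to 20, 67.2% to 70.5% were even numbers in marrow libraries and 69.2% to 72.8% in kidney libraries. The reason was not tested, and low counts may stand for fewer independent reads. The tissue labels matched their markers, since the summed level of 7 neutrophil genes was 18678 to 22842 CPM in control marrow and 0.259 to 1.01 CPM in control kidney. The 5 proximal tubule genes summed to 3.61 to 5.51 CPM in control marrow and 15231 to 17865 CPM in control kidney. Oxaliplatin marrows 3 and 4 stood apart from the other marrows in their neutrophil genes, at 9477 and 11182 CPM against 20814 to 26029 CPM in the other oxaliplatin marrows.

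In bone marrow the families moved mostly upward with oxaliplatin. Of the 48 genes, 38 had enough reads to test, and 21 rose and 1 fell, where a call needs an adjusted p under 0.05 and a change over 1.5-fold. Of all 22363 genes tested in marrow, 11.6% were called higher and 11.8% lower. The 21 genes came from nearly every family, from the elastase Mmp12 to all 3 TIMPs, and 16 of the tested genes were not called. In 18 of the 21 every oxaliplatin mouse lay above every control mouse, a pattern that 11.4% of all tested genes showed. Mmp13, Mmp14 and Mmp27 rose with overlapping groups. The median log2 fold change was 0.81 over the 38 genes and -0.04 over all tested genes. The 38 are those that passed a filter on low counts, so these figures describe them and not all 48. Adamts20 passed it only through the treated mice, which favours a lack of overlap. The heat map of values relative to the control mean gives every mouse.

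**Figure D1:**
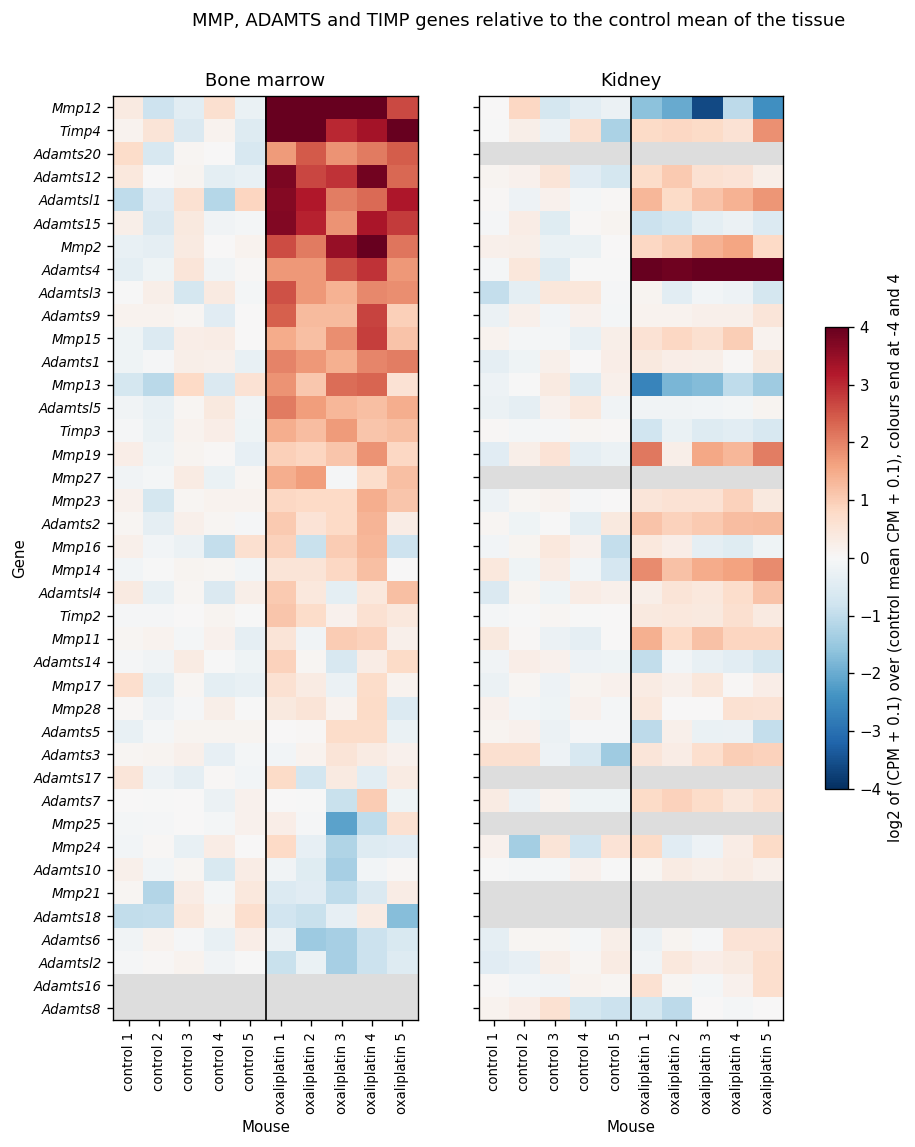
Rows are the 40 MMP, ADAMTS and TIMP genes tested in at least 1 tissue and columns are mice. Colour is the log2 ratio of each mouse to the control mean of its tissue, with 0.1 CPM added to both, red for higher and blue for lower, grey where the gene was not tested. Mmp12 and Mmp13 were red in oxaliplatin marrow and blue in oxaliplatin kidney, while Adamts4 was red in both.

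Mmp12, the macrophage elastase, showed the highest fold change of the set in marrow. Control mice 1 to 5 held 1.04, 0.407, 0.567, 1.31 and 0.650 CPM of Mmp12 and oxaliplatin mice 1 to 5 held 22.8, 25.9, 38.7, 111 and 5.50 CPM. Oxaliplatin mouse 4 was highest and mouse 5 lowest, and the lowest treated value lay above the highest control value (log2 fold change 5.67 ± 0.79 (SE), adjusted p = 2.77e-04). Mmp13, a collagenase that cuts fibrillar collagen and is made by bone cells, measured 12.6, 9.60, 35.9, 13.6 and 31.0 CPM in controls. After oxaliplatin it measured 72.0, 43.3, 98.0, 103 and 30.8 CPM. Mice 3 and 4 were again the highest, and mouse 5 lay within the control range (log2 fold change 1.76 ± 0.44 (SE), adjusted p = 0.00947). Without treated mice 3 and 4, the pair low in neutrophil genes, Mmp13 was not called (1.25, adjusted p = 0.130) and the log2 fold change of Mmp12 was 4.50, with 4.86 when treated mouse 4 alone was left out. The other collagenases, Mmp1a and Mmp1b, were too low to test, although control mouse 5 held 29 reads of Mmp1b against 0 or 1 in each other marrow.

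Mmp13 and Mmp12 are neighbours. In the GRCm38 annotation Mmp13 lies on chromosome 9, 7272514 to 7283331, and Mmp12 on chromosome 9, 7344381 to 7369499, both on the + strand. They belong to a run of 9 genes of the set from Mmp13 to Mmp7 that spans 427 kb. Both genes rose in marrow and fell in kidney. Their promoter windows from RefSeq (GRCm38.p6, 250 bases before the start to 50 after) are shown, with those of Timp3 and Timp4 as inhibitors outside the cluster. Capitals mark the AP-1 letters TGAGTCA or TGACTCA and the TATA letters TATAAA or TTTATA.
Mmp12 promoter, chr9:7344147-7344446 (+ strand): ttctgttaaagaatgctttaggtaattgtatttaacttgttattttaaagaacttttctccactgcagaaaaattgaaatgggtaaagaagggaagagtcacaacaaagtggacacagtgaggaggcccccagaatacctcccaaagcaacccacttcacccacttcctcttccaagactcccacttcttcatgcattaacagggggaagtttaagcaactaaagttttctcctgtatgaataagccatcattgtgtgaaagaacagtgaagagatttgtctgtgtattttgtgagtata
Mmp12 promoter, chr9:7347124-7347423 (+ strand): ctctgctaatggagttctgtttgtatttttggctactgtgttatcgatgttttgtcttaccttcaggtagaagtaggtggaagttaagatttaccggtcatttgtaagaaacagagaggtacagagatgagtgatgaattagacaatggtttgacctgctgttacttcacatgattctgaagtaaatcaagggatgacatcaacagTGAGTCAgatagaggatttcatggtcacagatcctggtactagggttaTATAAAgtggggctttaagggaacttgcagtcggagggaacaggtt
Mmp13 promoter, chr9:7272264-7272563 (+ strand): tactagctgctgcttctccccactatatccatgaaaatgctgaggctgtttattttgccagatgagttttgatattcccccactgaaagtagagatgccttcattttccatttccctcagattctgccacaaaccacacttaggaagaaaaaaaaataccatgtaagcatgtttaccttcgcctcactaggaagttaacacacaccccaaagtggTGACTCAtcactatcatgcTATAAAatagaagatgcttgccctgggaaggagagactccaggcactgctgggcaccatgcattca
Timp3 promoter, chr10:86300162-86300461 (+ strand): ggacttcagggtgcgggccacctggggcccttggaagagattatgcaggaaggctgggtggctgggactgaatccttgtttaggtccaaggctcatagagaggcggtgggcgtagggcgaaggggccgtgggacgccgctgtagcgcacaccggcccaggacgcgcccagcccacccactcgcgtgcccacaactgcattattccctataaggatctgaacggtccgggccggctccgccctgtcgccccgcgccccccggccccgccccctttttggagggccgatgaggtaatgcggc
Timp4 promoter, chr6:115252156-115252455 (- strand): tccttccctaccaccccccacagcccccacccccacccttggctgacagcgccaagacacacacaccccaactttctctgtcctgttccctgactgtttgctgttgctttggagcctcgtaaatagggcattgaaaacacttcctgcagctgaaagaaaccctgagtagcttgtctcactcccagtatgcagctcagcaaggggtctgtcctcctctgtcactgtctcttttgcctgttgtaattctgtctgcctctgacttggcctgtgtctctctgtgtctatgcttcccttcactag
Mmp12 has a pair of annotated starts, and only the window of the downstream one held the AP-1 letters, beginning at base 207 of the window. In Mmp13 they began at base 216. The TATA letters began 16 bases before the annotated start in Mmp13, but past the annotated start in the downstream window of Mmp12. Of the 37 windows of 34 genes, 7 held the AP-1 letters, 1 each for Mmp1a, Mmp1b, Mmp3, Mmp7, Mmp10, Mmp12 and Mmp13, all in the chromosome 9 run, against 5.2% of all 32851 promoter windows. The TATA letters were in 11 of the 37 windows, against 13.6% of all windows, and the PEA3 letters AGGAAG or CTTCCT were in 14 of the 37, against 35.4%. All of the 7 genes with AP-1 letters but Mmp12 and Mmp13 were too low to test in either tissue. The part of any of these letters in the changes was not tested.

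Mmp2, the gelatinase that degrades denatured collagen and basement membrane collagen, rose in every treated marrow. Its levels were 4.53, 4.34, 7.12, 5.56 and 6.17 CPM in controls and 34.0, 23.7, 63.2, 93.3 and 25.0 CPM after oxaliplatin, with mice 3 and 4 highest and no overlap (log2 fold change 3.11 ± 0.39 (SE), adjusted p = 1.02e-04). Without that pair its log2 fold change was 2.32. Mmp14, the membrane-type enzyme that activates the Mmp2 precursor on the cell surface, rose less. It measured 41.8, 44.7, 48.4, 47.5 and 41.8 CPM in controls and 64.1, 64.1, 79.4, 104 and 45.8 CPM in treated mice (log2 fold change 0.67 ± 0.17 (SE), adjusted p = 0.00838). Treated mouse 5 lay inside the control range, and without treated mouse 4 the log2 fold change was 0.50, under 1.5-fold, as it was without treated mice 3 and 4 together (0.37). Mmp15, another membrane-type enzyme, held 2.06, 1.54, 2.80, 2.85 and 2.34 CPM in controls and 6.74, 5.45, 8.60, 16.4 and 5.18 CPM in treated mice. Every treated mouse was above every control mouse (log2 fold change 1.87 ± 0.32 (SE), adjusted p = 5.72e-04).

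Of the other membrane-type genes, Mmp16, Mmp17, Mmp24 and Mmp25 were not called. Mmp25 encodes a membrane-anchored enzyme of neutrophils. Of the metalloproteinases in the set, it had the highest level per exon length in control marrow, at 28.1 ± 2.18 RPKM (CPM divided by exon length in kilobases, SD, n = 5). Mmp8 and Mmp9, left out by the rule, were not ranked and averaged 488 and 1155 CPM in control marrow. For Mmp25, controls held 141, 144, 149.9, 142 and 169 CPM and treated mice 179, 146, 34.1, 73.8 and 227 CPM (log2 fold change -0.18 ± 0.39 (SE), adjusted p = 0.771). Treated mice 3 and 4, which had the low neutrophil sums given above, had the lowest Mmp25 values and mouse 5 the highest. The part of neutrophil number in these values was not tested, and in these bulk samples fewer cells of a type and less RNA per cell cannot be told apart. The remaining metalloproteinases that rose were Mmp19 (1.17, adjusted p = 3.98e-04), Mmp27 (1.14, adjusted p = 0.00766) and Mmp23 (1.04, adjusted p = 0.00151), where a bare value before an adjusted p is a log2 fold change. Mmp19 shares 28.3% of its exonic bases with antisense genes, and the use of strand in counting is not given in the sources used here, so their reads cannot be told apart. Mmp11, or stromelysin-3, was not called at 0.58, nor were Mmp21 and Mmp28, and Mmp3, Mmp7, Mmp10 and Mmp20 were too low to test.

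Among the ADAMTS genes, those whose products cut aggrecan, versican and related proteoglycans moved most often, with 5 of the 6 tested called higher. Adamts4, an aggrecanase, held 1.14, 1.34, 2.21, 1.40 and 1.59 CPM in controls and 5.30, 5.36, 9.37, 12.1 and 5.34 CPM in treated mice, with mice 3 and 4 highest (log2 fold change 2.29 ± 0.29 (SE), adjusted p = 5.48e-05). Adamts9 was at 9.15, 9.11, 8.63, 5.96 and 8.22 CPM and then 43.3, 19.9, 19.7, 53.8 and 15.8 CPM (log2 fold change 1.89 ± 0.33 (SE), adjusted p = 8.78e-04). Treated mice 1 and 4 were above the others, and antisense genes cover 12.0% of its exonic bases. Adamts15 went from 2.06, 1.13, 2.30, 1.57 and 1.62 CPM to 24.1, 15.4, 6.34, 17.7 and 12.7 CPM, lowest in treated mouse 3 (log2 fold change 3.13 ± 0.32 (SE), adjusted p = 1.14e-05). Adamts1 (1.86, adjusted p = 1.48e-06) rose likewise, and Adamts20 rose from 5, 0, 2, 2 and 0 reads to 14, 24, 19, 25 and 27 reads (3.30, adjusted p = 0.00152). Adamts5, the other main aggrecanase, was not called (0.32, adjusted p = 0.221).

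Adamts12, which cuts cartilage oligomeric matrix protein, measured 2.56, 1.92, 2.08, 1.43 and 1.53 CPM in controls and 27.1, 12.7, 14.8, 28.8 and 9.73 CPM in treated marrow, highest in mice 1 and 4 and without overlap (log2 fold change 3.29 ± 0.32 (SE), adjusted p = 7.68e-06). Its relative Adamts7 was not called at 0.13. Of the procollagen N-proteinases, which trim procollagen before fibrils form, Adamts2 (0.86, adjusted p = 0.00253) rose and Adamts3 and Adamts14 were not called, at 0.23 and 0.38. The one gene that fell was Adamts6, from 5.41, 6.49, 5.70, 4.82 and 7.15 CPM to 4.98, 2.10, 2.28, 3.18 and 3.88 CPM (log2 fold change -0.85 ± 0.24 (SE), adjusted p = 0.0155). Treated mouse 1 lay within its control range. Adamts10, Adamts17 and Adamts18 were not called, and Adamts8, Adamts13, Adamts16 and Adamts19 were too low to test.

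Of the 5 ADAMTS-like genes, 3 rose. Adamtsl1 held 0.316, 0.524, 1.2, 0.285 and 1.43 CPM in controls and 10.8, 7.68, 3.43, 4.01 and 7.90 CPM in treated mice (log2 fold change 3.17 ± 0.48 (SE), adjusted p = 2.57e-04). Adamtsl3 held 4.62, 5.59, 2.87, 6.10 and 4.42 CPM and 28.2, 15.9, 12.6, 18.2 and 17.4 CPM (log2 fold change 1.97 ± 0.24 (SE), adjusted p = 3.70e-05). For both genes treated mouse 1 was highest and mouse 3 lowest, and the groups did not overlap. The third was Adamtsl5 (1.60, adjusted p = 3.69e-05). Adamtsl2, which binds fibrillin microfibrils, lay lower in all 5 treated mice than in any control, at 0.403 against 0.728 CPM on average, a pattern that 13.5% of all tested genes showed, and did not pass the test (-0.86, adjusted p = 0.0574). At 22 to 26 reads in controls and 10 to 19 in treated mice, it passed the filter on low counts through the controls, which favours such a pattern.

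All 3 inhibitors rose in marrow together with the proteases. Timp4 held 1.2, 1.57, 0.693, 1.2 and 0.715 CPM in controls and 47.5, 62.0, 9.32, 11.6 and 21.1 CPM after oxaliplatin (log2 fold change 4.80 ± 0.59 (SE), adjusted p = 8.72e-05). Mice 1 and 2 were highest and mice 3 and 4 lowest among the treated, whereas mice 3 and 4 were highest for Mmp2 and Mmp12. Timp3, which binds the matrix and also inhibits ADAMTS proteases, held 102, 88.8, 116, 128 and 94.5 CPM and 292, 248, 348, 231 and 246 CPM (log2 fold change 1.36 ± 0.14 (SE), adjusted p = 8.51e-06), and 21.3% of its exonic bases lie opposite Syn3. Timp2, which both inhibits metalloproteinases and takes part in Mmp2 activation, held 117, 116, 121, 129 and 120.3 CPM and 259, 201, 136, 186 and 161 CPM (log2 fold change 0.64 ± 0.14 (SE), adjusted p = 0.00363). Both genes separated treated from control mice, and Timp2 led the set per length in control marrow at 31.0 ± 1.37 RPKM (SD, n = 5). Without treated mouse 1 the log2 fold change of Timp2 was 0.50, under 1.5-fold.

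**Figure D2:**
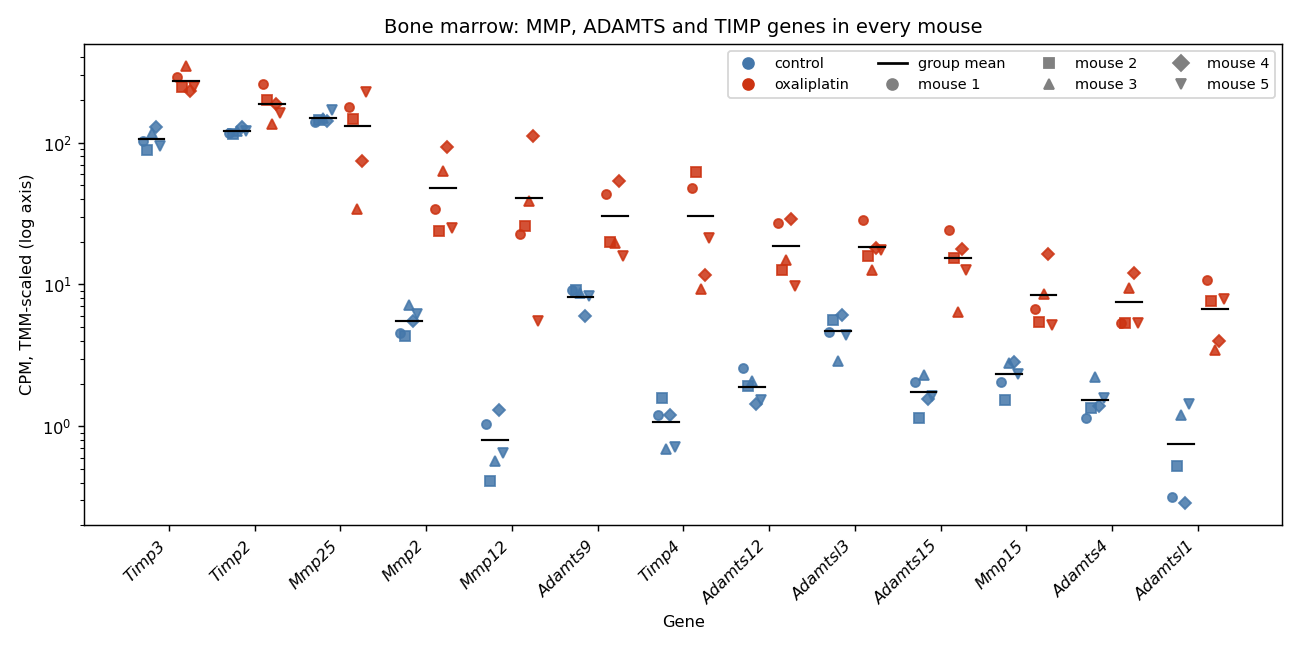
Each point is 1 mouse, with the gene on the horizontal axis and CPM on a log vertical axis, blue for control and red for oxaliplatin, and the black line is the group mean. All genes shown but Mmp25 have every red point above every blue point. Symbols give mouse numbers, and no label pairs mice across groups by number.

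Treated mice differed among themselves in which genes were highest. Of the 21 genes that rose, 11 were highest in treated mouse 4, including Mmp2, Mmp12, Mmp13 and Mmp14, and 5 in mouse 1, including Adamts15, Adamtsl1 and Timp2. Mouse 5 was lowest for 8 and mouse 3 for 7. With mice 3 and 4 left out, 21 genes of the families were again called higher and 1 lower in marrow, with Adamts14 and Adamtsl4 in place of Mmp13 and Mmp14.

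Markers of several cell types moved in the same marrows. All 8 adipocyte genes rose, with a summed level of 126 to 198 CPM in controls and 2443, 1164, 2519, 2662 and 570.0 CPM in treated mice 1 to 5. Of 6 macrophage genes 4 rose, with sums between 600.5 and 919 CPM in controls and 2192, 2049.8, 931, 1369 and 1569 CPM in treated mice 1 to 5. Treated mouse 4, the highest for Mmp12 and for 11 of the 21 genes that rose, was highest for the adipocyte, fibroblast and endothelial sums, and mouse 1 was highest for the macrophage sum. Of 6 osteoclast genes 4 rose, with sums of 143 to 203 CPM in controls and 206 to 434 CPM in treated mice. Of 7 osteoblast genes 2 fell and none rose, with sums of 155 to 212 CPM in controls and 71.0 to 127 CPM in treated mice. Fibroblast and endothelial genes each had 3 of 6 called higher, and the fibroblast sums overlapped, at 278 to 624 CPM in controls and 267 to 991 CPM in treated mice. Skeletal muscle genes had 5 of 6 higher. They summed to 11.7 to 98.0 CPM in controls and 350.0, 307, 745, 43.3 and 337 CPM in treated mice 1 to 5, with mouse 4 inside the control range. All 5 megakaryocyte genes, 3 of 4 mast cell genes and 2 of 7 reticular stroma genes rose, and none of the neutrophil or smooth muscle genes was called. In the same marrows all 6 erythroid genes and 5 of 6 B cell genes fell. The part of any of these lists in the metalloproteinase, ADAMTS and TIMP values was not tested.

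Fewer genes of the families were called in kidney. Of 34 genes tested, 12 rose and 2 fell, and 20 were not called. Over all 19293 genes tested in kidney, 7.68% were called higher and 3.81% lower. Of the 12, 8 had every treated mouse above every control, a pattern that 9.69% of all tested genes showed, and Adamtsl4, Mmp15, Mmp19 and Timp4 overlapped. Among the 8, Adamts4 passed the filter on low counts only through the treated kidneys, which favours a lack of overlap. With the mean log2 CPM of 4 Y-linked genes as a covariate 9 rose and 3 fell, Adamtsl4, Mmp23 and Timp4 losing their call and Adamts15 gaining one. All 10 kidney libraries expressed these Y-linked genes. The median log2 fold change was 0.35 over the 34 genes and 0.02 over all tested genes.

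Adamts4, the aggrecanase, showed the highest fold change in kidney. It was near the detection floor in controls, at 4, 7, 2, 4 and 4 reads in mice 1 to 5, and stood at 435, 113, 161, 169 and 572 reads after oxaliplatin. In CPM these are 0.149, 0.267, 0.0864, 0.161 and 0.162 against 15.6, 3.80, 5.79, 5.93 and 17.2, highest in treated mice 1 and 5 and without overlap (log2 fold change 5.82 ± 0.63 (SE), adjusted p = 1.46e-04). None of the other proteoglycan-cutting ADAMTS genes was called. Adamts15 was lower but under 1.5-fold (-0.54, adjusted p = 0.0131), with Adamts1, Adamts5, Adamts8 and Adamts9 between -0.39 and 0.27.

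Mmp14 rose in kidney from 9.0, 5.98, 8.21, 6.20 and 4.13 CPM to 25.2, 15.2, 19.1, 20.5 and 25.0 CPM (log2 fold change 1.65 ± 0.20 (SE), adjusted p = 6.91e-05), and Mmp2, whose precursor it activates, from 2.69, 2.78, 1.90, 1.93 and 2.35 CPM to 4.23, 4.68, 6.22, 7.16 and 4.08 CPM (log2 fold change 1.17 ± 0.19 (SE), adjusted p = 2.43e-04). Neither gene overlapped between groups. Mmp11 rose from 5.19, 4.04, 3.33, 3.02 and 3.93 CPM to 10.6, 6.80, 8.84, 7.12 and 7.14 CPM, also without overlap (log2 fold change 1.05 ± 0.17 (SE), adjusted p = 1.99e-04). Mmp15 measured 4.59, 3.96, 3.93, 3.34 and 4.90 CPM and 6.17, 7.51, 6.54, 8.28 and 4.62 CPM, with treated mouse 5 inside the control range (log2 fold change 0.67 ± 0.16 (SE), adjusted p = 0.00499). Mmp23 had the highest level per length in control kidney of the metalloproteinases in the set (2.06 ± 0.181 RPKM, SD, n = 5). It went from 4.18, 5.11, 5.27, 4.67 and 4.82 CPM to 6.78, 7.31, 7.30, 9.19 and 6.30 CPM (log2 fold change 0.62 ± 0.13 (SE), adjusted p = 0.00207). Its groups did not overlap, but without control mouse 1 or treated mouse 4 it was under 1.5-fold, at 0.53 at the lowest. Mmp19 (1.79, adjusted p = 0.00186) rose at low levels.

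The 2 genes that fell were the chromosome 9 neighbours that rose in marrow, both at low counts. Mmp12 held 30, 54, 15, 20 and 23 reads in controls and 8, 6, 0, 14 and 4 reads after oxaliplatin (log2 fold change -2.33 ± 0.53 (SE), adjusted p = 0.00341). Mmp13 held 22, 25, 29, 16 and 28 reads and 2, 6, 6, 12 and 10 reads (log2 fold change -1.96 ± 0.39 (SE), adjusted p = 0.00122). No treated kidney reached the lowest control for either gene, a pattern that 11.0% of all genes tested in kidney showed. Both genes passed the filter on low counts through the control kidneys, where they were higher, which favours such a pattern. Of 5 tested macrophage genes 4 fell and 1 rose, with sums of 36.7 to 43.4 CPM in controls and 18.0 to 28.7 CPM in treated kidneys, and their part in the Mmp12 values was not tested.

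Among procollagen and COMP processing genes, Adamts2 rose from 5.60, 4.73, 5.23, 3.98 and 6.88 CPM to 11.7, 10.0, 10.9, 12.7 and 12.9 CPM (log2 fold change 1.14 ± 0.14 (SE), adjusted p = 1.90e-05) and Adamts7 from 6.76, 4.53, 5.83, 4.75 and 4.66 CPM to 9.04, 10.2, 8.92, 7.30 and 8.55 CPM (log2 fold change 0.73 ± 0.14 (SE), adjusted p = 8.52e-04). Both separated the groups. Adamts3, Adamts12 and Adamts14 were not called, at 0.75, 0.69 and -0.48. Adamtsl1 rose from 6.49, 5.53, 7.13, 6.0 and 6.48 CPM to 15.9, 10.7, 14, 16.7 and 21.9 CPM, highest in treated mouse 5 (log2 fold change 1.33 ± 0.16 (SE), adjusted p = 1.74e-05). Adamtsl4, a partner of fibrillin microfibrils, went from 4.18, 6.86, 5.62, 7.85 and 7.29 CPM to 7.57, 9.09, 8.63, 10.4 and 14.2 CPM with overlap (log2 fold change 0.65 ± 0.18 (SE), adjusted p = 0.0142), and it was under 1.5-fold without control mouse 1 or treated mouse 5, at 0.50 at the lowest.

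The inhibitors did not share 1 direction in kidney. Timp3 had the highest level per length of the set, at 156 ± 6.79 RPKM in controls and 109.9 ± 15.8 RPKM in treated kidneys (SD, n = 5). It held 1303, 1202, 1228, 1332 and 1303 CPM in controls and 735, 1071, 897, 956 and 818 CPM after oxaliplatin, every treated value below every control (log2 fold change -0.51 ± 0.09 (SE), adjusted p = 4.86e-04), a difference under 1.5-fold and so not called. Timp2 held 41.0, 42.4, 45.2, 42.4 and 43.2 CPM and 56.7, 57.9, 56.2, 67.4 and 54.4 CPM, every treated value above every control, and was likewise under 1.5-fold (log2 fold change 0.45 ± 0.07 (SE), adjusted p = 1.41e-04). Timp4 rose at a low level, from 0.523, 0.648, 0.432, 0.886 and 0.162 CPM to 0.969, 1.01, 0.971, 0.842 and 2.13 CPM (log2 fold change 1.16 ± 0.38 (SE), adjusted p = 0.0300). Treated mouse 5 stood far above the other treated mice, and the call was lost without it (0.84) and without control mouse 1, 3 or 5.

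**Figure D3:**
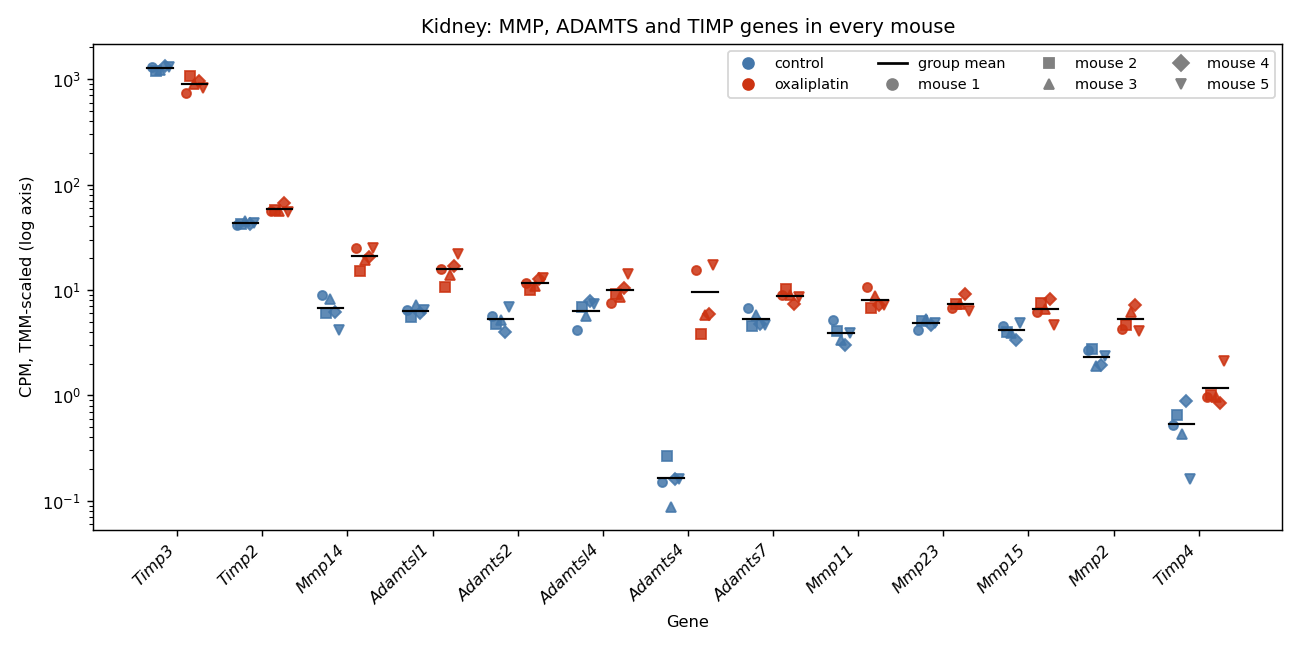
Each point is 1 mouse, with the gene on the horizontal axis and CPM on a log vertical axis, blue for control and red for oxaliplatin, and the black line is the group mean. Adamts4 shows the widest gap, and Timp3 is the gene whose red points all lie below the blue.

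In the same kidneys 5 of 5 tested fibroblast genes rose, with sums of 89.2 to 97.7 CPM in controls and 171 to 270.4 CPM in treated mice. Of 4 tested tubular injury genes 2 rose, with sums of 279 to 326 CPM and 508 to 644 CPM. Adipocyte genes had 5 of 7 higher, podocyte genes 3 of 4, smooth muscle genes 2 of 4 and endothelial genes 2 of 6, and 1 of 5 proximal tubule genes fell. Treated mouse 4 was highest for the fibroblast sum and for 3 of the 12 genes that rose (Mmp2, Mmp15 and Mmp23), and mouse 5 was highest for 5 of them, Adamts4 included. Their part in the metalloproteinase values was not tested.

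Whether the change differed between organs was tested in 1 fit over all 20 libraries, as the kidney change minus the marrow change. The fit held no term for the mouse, because no label ties a kidney to a marrow. Any kidney and marrow from the same animal were thus treated as independent. Of 40 genes tested, 4 were called with a higher kidney change and 15 with a lower one, against 10.8% and 12.8% of the 24321 genes in that fit. The difference was widest for Mmp12 (-8.09 ± 1.04 (SE), adjusted p = 8.26e-06), which rose in marrow and fell in kidney, as did Mmp13 (-3.78 ± 0.74 (SE), adjusted p = 5.96e-04). Adamts15 (-3.72 ± 0.35 (SE), adjusted p = 6.33e-08) and Timp3 (-1.93 ± 0.18 (SE), adjusted p = 5.03e-08) rose in marrow and were lower in kidney by less than 1.5-fold. Timp4, Mmp2, Adamtsl1 and Mmp15 rose in both organs and rose further in marrow, with differences of -3.69, -2.01, -1.89 and -1.27. Without oxaliplatin marrows 3 and 4 the difference was -6.83 for Mmp12, -3.19 for Mmp13, -1.13 for Mmp2 and -0.64 for Mmp15, the latter no longer called (adjusted p = 0.0995). Adamts4 (3.47 ± 0.62 (SE), adjusted p = 1.92e-04) and Mmp14 (0.90 ± 0.28 (SE), adjusted p = 0.0182) rose in both and rose further in kidney. Mmp19, Mmp23 and Adamts2 rose in both organs with no call on the difference. In all, 9 of the 32 genes tested in both organs rose in both and 2 rose in marrow and fell in kidney, against 2.39% and 0.628% of the 17507 genes tested in both.

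**Figure D4:**
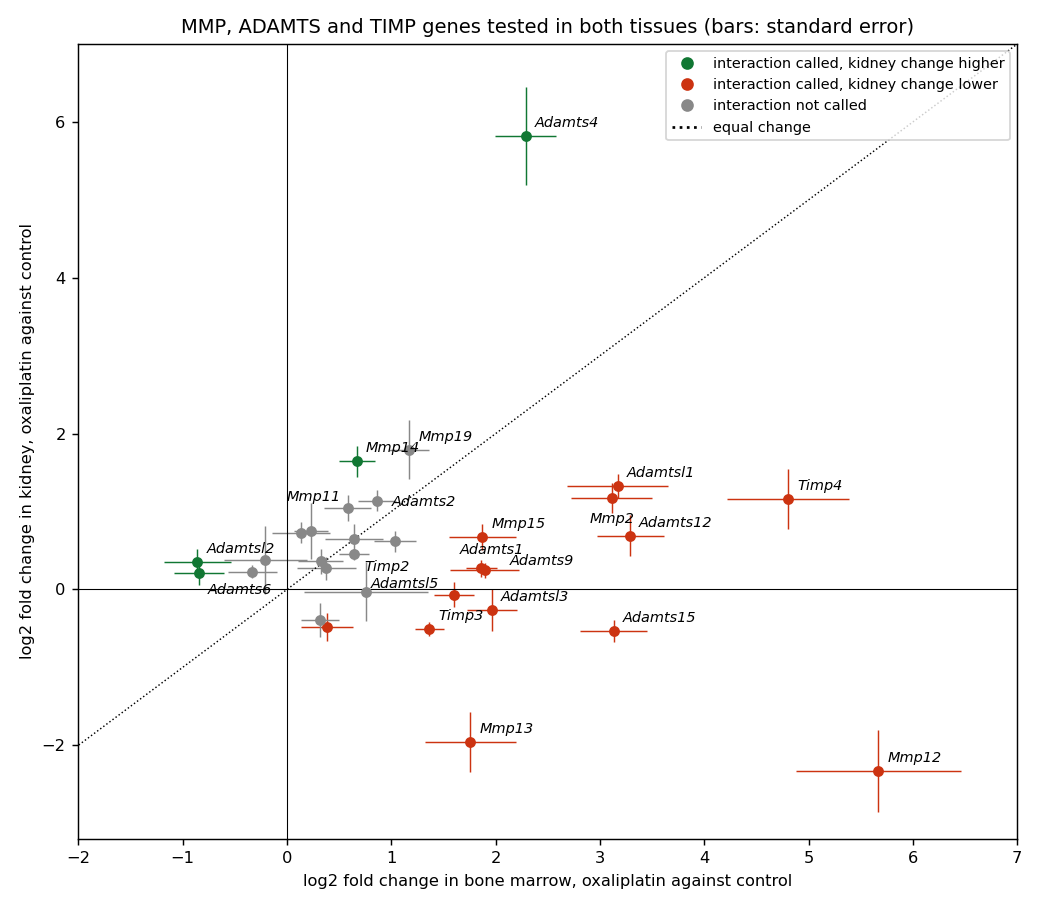
Each point is 1 of the 32 genes tested in both tissues, with its log2 fold change in marrow on the horizontal axis and in kidney on the vertical axis, bars giving the standard error. Red points, below the dotted line of equal change, had a lower kidney change in the interaction test and green points a higher one, and Mmp12 and Mmp13 sit at the lower right.

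A list of 42 genes around these families, covering activating proteases, inhibitors, substrates and relatives, was read beside them. In marrow 16 of the 36 tested rose and 4 fell, and in kidney 11 of 37 rose and 2 fell. These are 44.4% higher and 11.1% lower in marrow, beside 11.6% and 11.8% of all tested genes, and 29.7% higher and 5.41% lower in kidney, beside 7.68% and 3.81%. Among activating proteases in marrow, the plasminogen activators Plat (1.93, adjusted p = 0.00258) and Plau (1.65, adjusted p = 4.88e-05) and the proprotein convertases Pcsk5 (1.85, adjusted p = 6.55e-05) and Pcsk6 (1.74, adjusted p = 8.61e-04) rose, while Furin (0.08, adjusted p = 0.749) was not called. Plat was low, at 0.195 to 0.291 CPM in controls and 0.566 to 1.91 CPM in treated mice. Of the substrates, Comp (5.39, adjusted p = 1.63e-04), Vcan (1.90, adjusted p = 0.0317) and Thbs2 (1.96, adjusted p = 7.68e-06) rose in marrow. For Vcan the groups overlapped, at 17.1 to 42.0 CPM in controls and 13.7 to 195.5 CPM in treated mice. In kidney the fibrillin gene Fbn1 (1.54, adjusted p = 3.67e-08), Eln (1.23, adjusted p = 2.97e-04) and Comp (1.37, adjusted p = 0.0147) rose. The broad protease inhibitor A2m (-2.61, adjusted p = 8.01e-05) fell in marrow. Of the family members outside the rule, Timp1 (1.39, adjusted p = 0.0367) rose in marrow, and the neutrophil enzymes Mmp8 (-0.29, adjusted p = 0.686) and Mmp9 (-0.08, adjusted p = 0.862) were not called.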

How the data were processed

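RNA-seq counts per gene from 20 libraries, 5 in each of 4 groups, were analysed. Per the methods, the authors aligned reads with STAR to Ensembl release 101 and deposited a table of raw counts for each tissue, uniquely aligned unambiguous reads being counted. The submitters' processing notes also name featureCounts and Salmon, and the library chemistry is described in more than 1 way. Each table has 55774 lines, of which 287 repeat an identifier and 1 lacks a value, and these were dropped. Genes were kept by filterByExpr (minimum count 10), scaled by TMM and tested in each tissue with edgeR 4.0.16 (R 4.3.3, robust quasi-likelihood test, two-sided), with Benjamini-Hochberg adjustment over all genes tested and genes were called where the adjusted p was below 0.05 with more than 1.5-fold change. The tissue by treatment interaction was fitted over all 20 libraries. No label ties the libraries to named animals, so p-values measure the spread between these libraries. RPKM values were computed from the counts and GENCODE vM21 exon lengths. On counts simulated with 200 genes changed 3-fold, the marrow fit recovered 91.5% with 11 false calls among 21828 genes, the kidney fit 97.5% with 1 among 18949, and the interaction 77.5% with 3 among 23826. The changed genes were drawn only from those with higher mean counts. The recovered shares do not cover genes at low counts, such as Mmp12 and Mmp13 in kidney and Adamts20 in marrow.

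The genes given with the value of every mouse were the 10 called genes with the highest absolute log2 fold change and a mean of at least 1 CPM in each tissue, Timp2, Timp3, Timp4 and the metalloproteinase of the set with the highest level per length. Other called genes were named with their fold change. Values of every mouse for Mmp12 and Mmp13 in kidney, Mmp13 and Mmp14 in marrow, Adamts6 and Adamts20 were added after the values were seen. The gene families, the list of 42 related genes and the cell type markers were chosen with earlier results of these data known, and not every related gene is reported here by name. The alternatives were DESeq2 1.42.0, other scalings and filters, a replicate block, a Y-linked covariate (since the methods name both sexes and the labels give none), a test against 1.5-fold, no fold threshold, marrow without the hemoglobin genes, and each library left out. As all 10 marrow and all 10 kidney libraries expressed Y-linked genes, this covariate cannot separate males from females. Halving the counts, because low counts were mostly even, and leaving out 2 marrows together were chosen after seeing the data. The floors of 3 counts cover counting error only, while SD and SE values include the spread between libraries.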

Additional observations from a re-analysis of the deposited data

Results flagged for a closer look

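Of 72 groups of 5 values of called genes, 3 had a value far from the other 4, and chance flags about 5% of groups. Mmp19 in oxaliplatin marrow 4 stood at 39.6 CPM, with the other treated marrows at 19.9 to 24.7 CPM. Mmp23 in control marrow 2 stood at 2.74 CPM, with the others at 4.85 to 5.10 CPM. Timp4 in oxaliplatin kidney 5 stood at 2.13 CPM, with the others at 0.842 to 1.01 CPM.

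The change with oxaliplatin differed between kidney and marrow for 19 genes by the interaction test, given here as the kidney minus the marrow log2 fold change. It was higher in kidney for Adamts4 (3.47), Adamtsl2 (1.16), Adamts6 (1.02) and Mmp14 (0.90). Among metalloproteinases it was lower in kidney for Mmp12 (-8.09), Mmp13 (-3.78), Mmp2 (-2.01) and Mmp15 (-1.27). Among ADAMTS proteases it was lower for Adamts15 (-3.72), Adamts20 (-2.86), Adamts12 (-2.65), Adamts9 (-1.71), Adamts1 (-1.64) and Adamts14 (-0.91). Adamtsl3 (-2.27), Adamtsl1 (-1.89) and Adamtsl5 (-1.72) were lower too, as were the inhibitors Timp4 (-3.69) and Timp3 (-1.93).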

How the results depend on the processing

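Of 1318 recomputed values of single called genes, 1281 kept their direction and call, 37 kept their direction without the call and 0 reversed. Called genes that did not pass the filter of a setting gave no value and are not in that total, such as Adamts20 in marrow with halved counts. The values without a fold threshold come from the reported fit, so their call was kept by construction. With single libraries left out, the families had 20 to 22 genes higher and 1 to 2 lower in marrow, 9 to 12 higher and 2 to 4 lower in kidney, and 18 to 21 called for the interaction. The 42 related genes then had 14 to 18 higher and 2 to 4 lower in marrow, and 9 to 12 higher and 2 lower in kidney. The highest count lower in kidney, 4, came without oxaliplatin kidney 2, and the 2 lower in marrow came without control marrow 1 or oxaliplatin marrow 2. Genes of the families lower in marrow, 1 in the reported test, numbered 2 with DESeq2, with at least 10 counts in every library, with the Y-linked covariate and with halved counts, and 0 in the test against 1.5-fold. That test gave 6 higher in kidney, and among related genes 1 lower in marrow and 4 higher and 0 lower in kidney. Without a fold threshold kidney had 5 lower, and among related genes 19 higher and 4 lower. Mmp12 and Mmp13 were not among the kidney calls with at least 10 counts in every library, where Adamts4, Mmp19 and Timp4 were lost too, or with halved counts, where Mmp19 was lost too, and each left 0 lower. Scaling by library size alone gave 18 related genes higher in kidney and 2 lower in marrow. It moved the median of all genes to 0.11 in marrow and 0.16 in kidney, and the share of calls that were higher from 49.6% to 63.4% and from 66.8% to 82.7%. Leaving out oxaliplatin marrows 3 and 4 gave 2 related genes lower in marrow. Adamts20 in marrow had a log2 fold change of 4.10 without control marrow 1, and the difference between organs for Mmp12 was -7.29 without oxaliplatin marrow 4. The Adamts14 interaction call was lost without any 1 of 7 libraries. No label says whether replicate numbers pair control and treated mice. Deviations of same-numbered libraries correlated between -0.087 and 0.331 in marrow and -0.182 and 0.0907 in kidney. Any control and treated library correlated between -0.391 and 0.443 in marrow and -0.249 and 0.309 in kidney, and such correlations cannot settle pairing. With a replicate block the families had 21 higher and 1 lower in marrow, 12 and 2 in kidney, and 19 interaction calls. In kidney Adamts12 was gained and Timp4 lost (the log2 fold change of Timp4 in kidney had an adjusted p of 0.0882), and for the interaction Adamts5 was gained and Adamts14 lost (adjusted p = 0.0565). The Y-linked covariate gave 9 higher and 3 lower in kidney and the same exchange of Adamts5 for Adamts14. Causes of these shifts were not tested. Depth limits the genes near 3 reads, including Adamts4 in control kidney and Mmp12 and Mmp13 in treated kidney.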
